A study of Mus musculus with 12 samples.

Results

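The 10 genes described here belong to the contractile apparatus of smooth and cardiac muscle and were found by symbol among the 24421 genes of a raw read count table: the actins Acta2, Actc1 and Actg2, the myosin light chains Myl3 and Myl9, the tropomyosins Tpm1 and Tpm2, and the actin-binding proteins Tagln, Cnn1 and Cnn2. The set was chosen because Acta2 and Myl3 were near 0 in the control libraries, so every difference of these 10 genes between Mycn guides and control is given as a description, with no test. The study sequenced polyA RNA from 12 libraries of mouse E14 embryonic stem cells that express dCas_Alkbh5, a fusion of a Cas protein with the enzyme that removes m6A from RNA. It asked what follows when this fusion is directed to Mycn, a growth-promoting transcription factor of the MYC family, in cells held in a dormant state.

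The libraries fall into 3 groups of 4, with a control guide called NT-gRNA (NT here), with Mycn-gRNA2 or with Mycn-gRNA3. Per the labels, all 3 groups share the cell line and genotype (WT(dCas_Alkbh5)), growth on gelatin in FBS and LIF, a transfected lenti-sgRNA-BSD plasmid coding for the guide, 3 days of selection in 8 µg/mL blasticidin and then 200 nM INK128, which inhibits the kinase mTOR, for 5 days. These 12 libraries hold 1 control guide and none without INK128. RNA came from 200000 cells per library and was spiked with ERCC RNAs, which are synthetic transcripts. The labels do not say whether the 4 replicates of a group came from separate cultures. The p-values thus reflect the spread among these libraries, and that spread may be technical.

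The contractile apparatus slides actin filaments past myosin filaments. Acta2, Actg2 and Actc1 are the filament-forming actins of vascular smooth muscle, of visceral smooth muscle and of heart, and differ from the cytoplasmic actins of all cells in a few residues. Light chains bind the neck of the myosin heavy chain, tropomyosins lie along the actin filament, and transgelin and the calponins bind actin as well. Many of these genes are activated by serum response factor (SRF), which binds a motif called the CArG box and works with myocardin in muscle and with the actin-sensing MRTF coactivators in other cells. In embryonic stem cells, Acta2, Tagln and Cnn1 are best known as markers that appear when cells differentiate toward smooth muscle, and Myl3 and Actc1 toward heart.

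The CArG box is the motif for which promoters of muscle genes are best known, so the windows that hold it, or a form close to it, are printed. The 250 bases before the RefSeq start were found for 8 of the 10 genes (build GRCm38.p6, that is mm10; sequences credited to RefSeq). The window of Acta2 lies at chr19:34255374-34255623 (minus strand), that of Actc1 at chr2:114052876-114053125 (minus), Cnn2 at chr10:79988350-79988599 (plus), Myl3 at chr9:110763428-110763677 (plus) and Myl9 at chr2:156775214-156775463 (plus). Each is written 5′ to 3′ on its gene's strand, and capitals mark the CArG box or a form of it in which 1 of the 6 middle letters is G or C.
Acta2: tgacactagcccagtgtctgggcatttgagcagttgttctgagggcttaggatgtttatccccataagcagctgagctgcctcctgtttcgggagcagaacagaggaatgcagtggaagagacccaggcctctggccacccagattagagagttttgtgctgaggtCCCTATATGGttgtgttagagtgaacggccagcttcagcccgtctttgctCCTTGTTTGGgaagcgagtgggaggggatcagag
Actc1: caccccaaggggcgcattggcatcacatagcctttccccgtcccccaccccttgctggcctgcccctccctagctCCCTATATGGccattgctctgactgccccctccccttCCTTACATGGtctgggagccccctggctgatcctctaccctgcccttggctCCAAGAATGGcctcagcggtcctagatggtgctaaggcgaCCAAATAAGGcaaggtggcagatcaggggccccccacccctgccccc
Cnn2: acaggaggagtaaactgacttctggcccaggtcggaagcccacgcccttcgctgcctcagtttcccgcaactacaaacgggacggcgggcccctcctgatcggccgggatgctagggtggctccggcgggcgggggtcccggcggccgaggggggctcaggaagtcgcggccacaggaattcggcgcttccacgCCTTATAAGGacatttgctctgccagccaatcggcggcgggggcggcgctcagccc
Myl3: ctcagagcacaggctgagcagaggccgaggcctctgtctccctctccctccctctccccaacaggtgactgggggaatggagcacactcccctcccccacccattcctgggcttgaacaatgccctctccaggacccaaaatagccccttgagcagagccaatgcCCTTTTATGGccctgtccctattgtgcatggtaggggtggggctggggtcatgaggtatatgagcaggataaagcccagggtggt
Myl9: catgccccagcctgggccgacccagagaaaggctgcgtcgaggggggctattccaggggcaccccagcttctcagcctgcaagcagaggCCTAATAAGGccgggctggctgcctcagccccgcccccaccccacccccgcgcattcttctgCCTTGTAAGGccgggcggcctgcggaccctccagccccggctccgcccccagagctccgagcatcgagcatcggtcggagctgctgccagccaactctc

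The CArG box reads the same way on both strands and spans 10 bases, with 6 letters of A or T between CC and GG. Over 32851 promoter windows of the same length, 1.47% held it and 7.24% held the form with 1 G or C. Actc1, Cnn2, Myl3 and Myl9 each held 1 full box. Acta2 held 2 of the looser form, the nearer at -34 to -25 counted from the RefSeq start, Actc1 held 3 besides its full box and Myl9 held 1. The windows of Cnn1, Tpm1 and Tpm2 held neither form. The E-box CACGTG, which MYC proteins with MAX bind and which also reads alike on both strands, was in 6.02% of all windows and in 0 of these 8. A match of letters is a description and shows neither a bound site nor a cause.

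Depth ran from 17248564 to 33819855 endogenous reads per library. Mycn, the gene the guides name, stood at 141 ± 4.17 CPM in NT libraries, 236 ± 26.7 in Mycn-gRNA2 and 276 ± 16.7 in Mycn-gRNA3 libraries (SD over 4 each). Both guides together gave a log2 fold change of 0.86 (SE 0.0699, adjusted p = 3.39e-06 in edgeR's quasi-likelihood test). CPM here are counts scaled to library size with TMM factors. The 4 Y-linked genes Kdm5d, Eif2s3y, Ddx3y and Uty summed to 1 to 4 reads (0.0448 to 0.181 CPM) in each NT library, 32.4 to 83.7 CPM in the Mycn-gRNA2 libraries and 46.1 to 63.5 CPM in those of Mycn-gRNA3. NT and guide cultures thus differed in Y-linked RNA too, and in each comparison with NT what the guides do and what the cultures bring cannot be told apart. Embryonic stem cell markers were present in all libraries, with sums of 5770 to 6300 CPM in NT, of 4550 to 5310 in Mycn-gRNA2 and of 5160 to 5360 in Mycn-gRNA3 libraries. In these bulk libraries, fewer cells of a type and less RNA per cell cannot be told apart.

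Acta2, the smooth muscle actin, was close to absent in NT and present in every guide library. NT replicates 1 to 4 had 1, 2, 0 and 1 reads, against 96, 43, 99 and 97 reads in Mycn-gRNA2 and 94, 98, 131 and 111 in Mycn-gRNA3. The lowest guide library thus held 43 reads where the highest NT library held 2, and the groups did not overlap. In CPM the 3 groups stood at 0.0447 ± 0.0366, 3.63 ± 0.75 and 3.86 ± 0.62 (SD, n = 4 each). All NT libraries lay below the 0.119 to 0.135 CPM that 3 reads are worth there. The ratio of reads scaled to library size, both guides to NT, was 87.4 with a 95% counting interval of 34 to 321, from 769 against 4 reads, with 85.8 for Mycn-gRNA2 and 88.6 for Mycn-gRNA3. Such intervals hold counting error alone, because reads are pooled over the libraries of a group and the spread between libraries is left out. The table counts reads, and PCR copies of a molecule are not told apart in it.

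The reads of Acta2 are few beside those of the cytoplasmic actins, whose sequences are close to it. Actb, the beta cytoplasmic actin, stood at 2550 to 2910 CPM in the NT libraries in which Acta2 had 4 reads in all. Of the 50-base stretches in the Acta2 transcripts, 0.326% also occur in another annotated gene, the pseudogene Actg-ps1. For the other 9 genes that share was 0. Acta2 lies at chr19:34240336-34255373 of mm10 on the minus strand, in 9 exon blocks.

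Actc1 and Actg2, the cardiac and the visceral smooth muscle actin, stayed at the level of single reads. Actc1 had 0, 1, 0 and 0 reads in NT, 3, 1, 5 and 2 in Mycn-gRNA2 and 1, 3, 4 and 1 in Mycn-gRNA3. Its ratio was 9.09 with an interval of 1.45 to 377, from 20 guide reads against 1 NT read. Actg2 had 2, 0, 0 and 5 reads in NT, 6, 1, 2 and 4 in Mycn-gRNA2 and 2, 3, 8 and 3 in Mycn-gRNA3, a ratio of 1.88 (0.807 to 5.09). Its libraries overlapped between all 3 groups, and neither gene passed the filter on low counts, so no fold change was fitted for them.

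Myl3, the essential light chain of myosin in heart and in slow muscle, also went from a few reads to a low level. NT replicates 1 to 4 had 1, 6, 6 and 3 reads, Mycn-gRNA2 had 43, 33, 85 and 116, and Mycn-gRNA3 had 103, 154, 146 and 145. Every guide library lay above every NT library, and 3 of the 4 Mycn-gRNA2 libraries lay below every Mycn-gRNA3 count. In CPM the groups stood at 0.171 ± 0.102, 2.94 ± 1.23 and 4.85 ± 0.709 (SD, n = 4 each). The ratio to NT was 17.7 (10.7 to 31.5) with Mycn-gRNA2 and 28 (17.1 to 49.3) with Mycn-gRNA3. The gene lies at chr9:110763681-110769794 of mm10 on the plus strand.

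Myl9, the regulatory light chain whose phosphorylation switches on smooth muscle contraction, was expressed in NT and higher with both guides. Its CPM were 2.12, 1.79, 3.16 and 4.22 in NT replicates 1 to 4, 9.47, 6.73, 10.6 and 11.9 in Mycn-gRNA2 and 10.6, 11.4, 14.1 and 10.1 in Mycn-gRNA3. The groups did not overlap between NT and guides, with 263 reads in NT and 2203 with the guides. The fitted log2 fold change against NT was 1.78 (SE 0.237) for Mycn-gRNA2 and 2.03 (SE 0.235) for Mycn-gRNA3.

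Of the tropomyosins, Tpm2, the beta form, stood higher in every guide library and Tpm1, the alpha form, overlapped with NT. Tpm2 stood at 8.84, 12, 9.85 and 11.9 CPM in NT, at 20.4, 16.7, 23.7 and 22.8 in Mycn-gRNA2 and at 21.6, 20, 25.2 and 22.4 in Mycn-gRNA3, with a fitted log2 fold change of 1.02 for both guides (SE 0.114). The lowest guide library, at 16.7 CPM, lay above the highest NT library, at 12 CPM. Tpm1, the most abundant of the 10 genes per length, stood at 135 ± 34.5, 161 ± 41.5 and 152 ± 25 CPM in the 3 groups (SD, n = 4 each). Only 3 of 8 guide libraries had more Tpm1 than every NT library.

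The calponins and transgelin, which bind actin filaments, split in the same way. Cnn1, calponin of differentiated smooth muscle, had 6 to 8 reads in each NT library, 10, 11, 23 and 25 in Mycn-gRNA2 and 17, 12, 32 and 30 in Mycn-gRNA3. Its level was 0.271 to 0.352 CPM in NT and 0.435 to 1.16 CPM with the guides, so the groups did not overlap, but the nearest libraries held 8 and 10 reads. Cnn2, a calponin of smooth muscle and non-muscle cells, stood at 44.6, 43.1, 87.1 and 82.8 CPM in NT, at 49.5, 55, 94 and 109 in Mycn-gRNA2 and at 70.8, 75.6, 97.6 and 84.5 in Mycn-gRNA3. The ranges of Cnn2 overlapped, as did those of Tagln, transgelin or SM22, an early marker of smooth muscle. Tagln stood at 4.96, 3.54, 17.9 and 17.1 CPM in NT, at 7.74, 9.65, 20.2 and 24.1 in Mycn-gRNA2 and at 11.8, 11.7, 19.6 and 17.6 in Mycn-gRNA3. Tagln shares 95 bases with Pcsk7 on the opposite strand, with the strand setting of the counting not given in the sources used here.

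**Figure D1:**
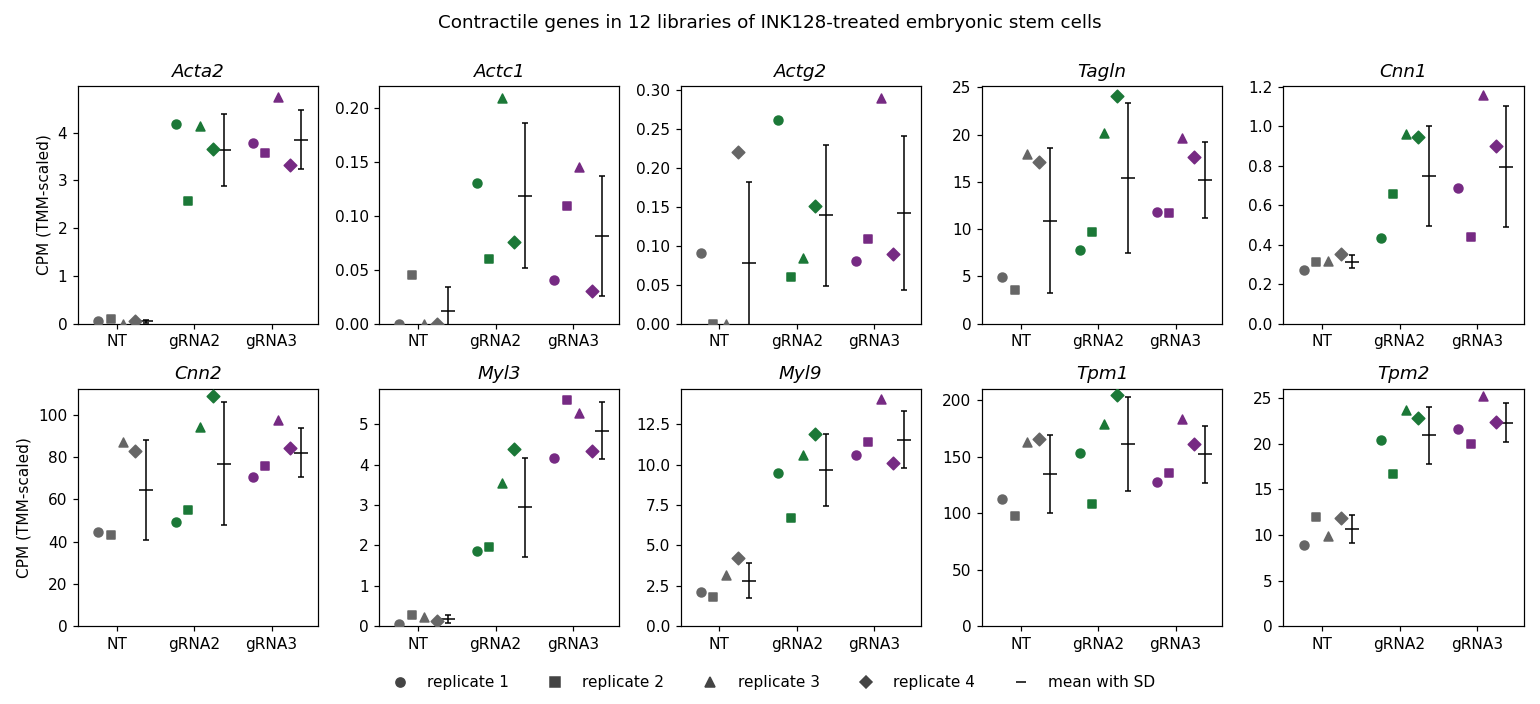
TMM-scaled CPM of the 10 genes (y axis, linear, from 0, a scale per gene) in the 4 libraries of NT, Mycn-gRNA2 and Mycn-gRNA3 (x axis); points are libraries, the marker shape gives the replicate number and bars are mean and SD. Acta2, Myl3, Myl9, Tpm2 and Cnn1 lie higher in all 8 guide libraries than in any NT library, whereas for Tagln, Cnn2 and Tpm1 the NT replicates 3 and 4 reach the guide libraries.

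Across all 12 libraries, 8 of the 10 genes passed the filter on low counts, and for 5 (Acta2, Myl3, Myl9, Tpm2 and Cnn1) all 8 guide libraries lay above all 4 NT libraries. Over all 14497 genes that passed, 8.55% did so. Since the set was chosen on this contrast, nothing is read from that difference. The count stayed at 5 whichever single library was left out. Fitted log2 fold changes with both guides against NT were 6.28 (SE 0.344) for Acta2, 4.42 (SE 0.368) for Myl3, 1.90 (SE 0.216) for Myl9, 1.30 (SE 0.315) for Cnn1 and 1.02 (SE 0.114) for Tpm2. For Tagln, Cnn2 and Tpm1 they were 0.49 (SE 0.421), 0.30 (SE 0.242) and 0.21 (SE 0.175). The values of Acta2 and Myl3 rest on so few NT reads that the fit depends on its prior count. The read ratios above use no prior count, but their intervals leave out the spread between libraries.

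Taken per ERCC read instead of relative to the transcriptome, the median gene stood 0.39 higher (log2) in the guide libraries. On that scale Acta2 differed from NT by 6.66, Myl3 by 4.83, Myl9 by 2.33, Cnn1 by 1.70 and Tpm2 by 1.42, and Tagln, Cnn2 and Tpm1 by 0.93, 0.73 and 0.64. All 8 thus lay above the shift of the median gene on either scale, Tpm1 by the least.

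Levels per kilobase of transcript allow the genes to be ordered. In NT, Tpm1 (41.1 CPM per kb) and Cnn2 (36.1) came first and overlapped each other, followed by Tagln (6.86), Tpm2 (3.20) and Myl9 (2.61), neighbours in this order that overlapped as well. Myl3 (0.190), Cnn1 (0.158), Actg2 (0.059), Acta2 (0.0174) and Actc1 (0.00807) formed the low end, each overlapping the next. With the guides, Acta2 stood in 7th place, at 1.41 CPM per kb in Mycn-gRNA2 and 1.5 in Mycn-gRNA3, between Myl3 (3.27 and 5.40) and Cnn1 (0.377 and 0.4) and overlapping neither. Even so, Actb stood at 1360 CPM per kb in the guide libraries, so Acta2 remained a minor actin transcript.

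The difference between the guides did not enter the choice of genes and was tested. With edgeR's quasi-likelihood test, 0 of the 8 genes differed between Mycn-gRNA3 and Mycn-gRNA2 at an adjusted p under 0.05, where 0.00% of all 14497 genes were called, though 1273 had an unadjusted p under 0.05. With the replicate number as a block these counts were 0 and 1353 over all genes, and with DESeq2 1 and 1373. Myl3 had the largest difference of the 8, 0.70 higher with Mycn-gRNA3 on the log2 scale (95% interval 0.16 to 1.24, edgeR adjusted p = 0.549). The other 7 differed by -0.08 (Tpm1) to 0.25 (Myl9). For Acta2 the difference was 0.07 with an interval of -0.32 to 0.47 (edgeR adjusted p = 0.891), and for Tpm2 0.09 (-0.17 to 0.35). Tagln, at -0.03, had the largest SE of the 8 genes tested (0.469, interval -1.05 to 0.98). With the replicate block its difference was 0.10 with an SE of 0.223 (edgeR adjusted p = 0.86).

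**Figure D2:**
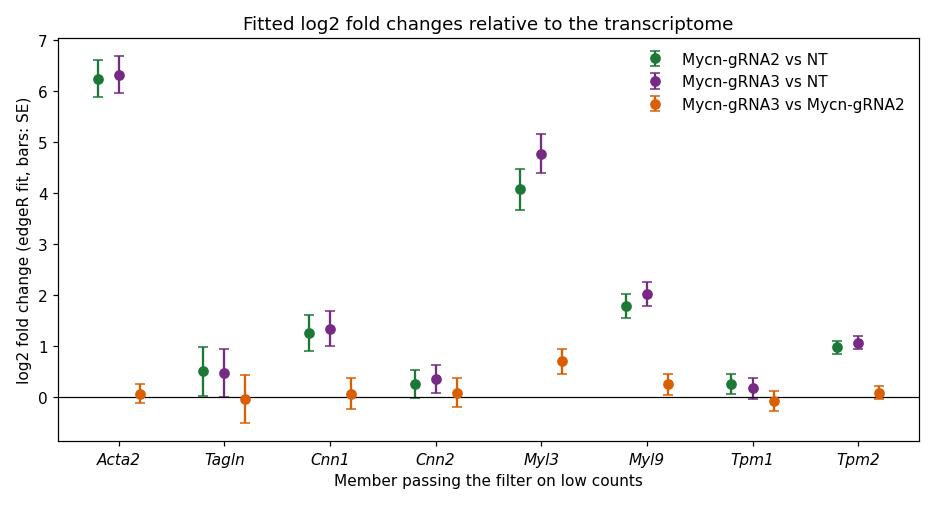
Fitted log2 fold changes (y axis, edgeR, with SE bars) of the 8 genes that passed the filter on low counts (x axis), for each Mycn guide against NT and for Mycn-gRNA3 against Mycn-gRNA2. The guides lie close to each other for each gene, with the widest gap, 0.70, at Myl3; Acta2 and Myl3 lie above 4 on this scale against NT.

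Mycn-gRNA2 replicate 2 stood lowest of its group in Y-linked RNA and in part of the set. Its Y-linked genes summed to 32.4 CPM, 0.471 of the mean of the other 3. In that library Acta2 stood at 0.642 of the mean of the others, Myl9 at 0.632, Myl3 and Tpm1 at 0.602 each and Tpm2 at 0.751. Its Acta2, at 2.56 CPM, its Myl9, at 6.73 CPM, its Tpm1 and its Tpm2 were the lowest of the 8 guide libraries. Its Myl3 (1.97 CPM), Tagln (9.65), Cnn2 (55) and Cnn1 (0.655) lay above those of Mycn-gRNA2 replicate 1 (1.87, 7.74, 49.5 and 0.435). What the lower levels in this library come from was not tested.

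A pattern in the replicate numbers ran through part of the set. For Tagln, Cnn1, Cnn2 and Tpm1, 4 of the 8 genes, replicates 3 and 4 lay above replicates 1 and 2 in all 3 groups, NT included, where 3.79% of all 14497 genes did so. The ratio of the mean of replicates 3 and 4 to that of 1 and 2 was 4.12 for Tagln in NT, 2.55 in Mycn-gRNA2 and 1.59 in Mycn-gRNA3. For Cnn2 it was 1.94, 1.95 and 1.24, and for Tpm1 1.56, 1.47 and 1.30. For Cnn1 it was 1.14, 1.75 and 1.83, and in NT that rests on 6 and 7 reads against 8 and 8. In Acta2, with ratios of 1.16 and 1.10 within the guide groups, replicates 3 and 4 did not both lie above 1 and 2 in any group. The labels do not say that the numbers mark a batch, and what they stand for was not tested.

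**Figure D3:**
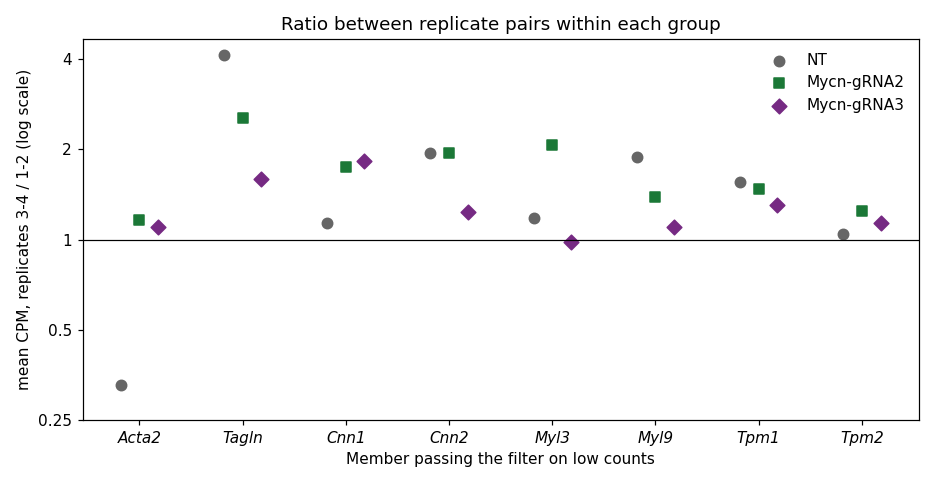
Ratio of the mean CPM of replicates 3 and 4 to that of replicates 1 and 2 within each group (y axis, log scale, 1 means equal) for the 8 genes that passed the filter (x axis). Tagln, Cnn1, Cnn2, Tpm1, Myl9 and Tpm2 lie above 1 in all 3 groups, with Tagln at 4.12 in NT. For Myl9 and Tpm2, replicates 3 and 4 do not lie clear of 1 and 2 in every group. The low NT point of Acta2 rests on 4 reads.

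Set within each pair of replicate numbers, the comparison with NT looks different for these genes. Within replicates 1 and 2, guide levels of Tagln were 2.40 times those in NT, and within replicates 3 and 4 they were 1.16 times. For Cnn2 the ratios were 1.43 and 1.13 and for Tpm1 1.24 and 1.11. Acta2 had ratios of 52.3 and 180, resting on 3 NT reads in replicates 1 and 2 and 1 NT read in 3 and 4. Myl9, at 4.88 and 3.16, Myl3, at 21.6 and 23.8, Tpm2, at 1.89 and 2.16, and Cnn1, at 1.89 and 2.96, were higher within both pairs. In replicates 1 and 2 alone 7 of the 8 genes lay above NT without overlap, Tpm1 being the exception (13.9% of all genes), and in replicates 3 and 4 alone 5 did (29.3% of all genes).

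Genes of other lists showed the same pattern of replicate numbers, so the 4 contractile genes were not alone in it. It held for 9 of 23 tested genes of the SRF and MRTF network, namely Srf itself, its coactivator Mrtfa (Mkl1 in the table), the adhesion and actin-linking genes Vcl, Zyx, Actn1, Actn4 and Itgb1, and the secreted factors Cyr61 and Ctgf. Srf stood at 44.2 to 49.5 CPM in NT replicates 1 and 2 and at 61.2 to 63.5 in 3 and 4. Zyx, zyxin of focal adhesions, stood at 38 to 39.5 and 64.9 to 79.6. It also held for Actb, Actg1, Myl12a and Tpm4 among 14 tested paralogs of the set, and for Smtn, Des, Pdlim7 and Flna among 14 other smooth muscle genes. Outside muscle and actin genes it held for the fibroblast markers Col5a1, Vim and Twist1, 3 of 10 tested, and for the endoderm markers Lamb1, Sparc and Pth1r, 3 of 15. The opposite order, with replicates 3 and 4 lower in every group, was seen in Mylpf among the paralogs and in 1.90% of all genes.

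Over the 8 guide libraries the contractile genes varied together to different degrees. On the log2 CPM scale Tagln followed Cnn2 with a Pearson r of 0.98 and Cnn1 with 0.86. Acta2 followed Myl9 and Tpm2 with 0.82 each, and Myl9 followed Tpm2 with 0.88. Other pairs were about as high, such as Tpm1 with Tpm2 (0.85), Myl3 with Myl9 (0.81), Tagln with Tpm1 (0.79) and Cnn2 with Myl3 (0.79). The lowest values were those of Acta2 with Cnn1 (0.25) and with Tagln (0.31). These 8 points share guide group and replicate number and, for part of the genes, the low level in Mycn-gRNA2 replicate 2. The values are a description. Among 11822 other genes whose mean log2 CPM reached 1, those most like Acta2 over the same 8 libraries were Eps8l2 (r = 0.978), Olfml3 (0.977), Fam220a (0.956), Flt1 (0.953) and Fbln1 (0.939). Those most like Myl3 were Socs6 (0.986), Mrpl43 (0.985), Abhd11 (0.978), Rnf215 (0.977) and Snx21 (0.977). These are the top of a ranking of many genes over 8 points.

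Genes of the wider muscle programme went both ways. All lists here and below were chosen with earlier results of these data known. Their counts and p-values are thus a description, and nothing is read from their difference to all genes. Of 126 other genes of contraction, its regulators and its signals, 90 passed the filter, and of these 16 (17.8%) rose and 20 (22.2%) fell with both guides against NT at an edgeR adjusted p under 0.05, where 14.9% of all genes rose and 13.0% fell. Their median log2 fold change was -0.07, against -0.003 for all genes. Per ERCC read the split was 38 that rose and 1, Tbx3, that fell, and over all genes 56.4% and 0.931%. Of the 36 calls, 21 held whichever single library was left out, 11 that rose and 10 that fell. Without NT replicate 3 the number that fell was 13, and without NT replicate 4 it was 12.

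Of 14 tested paralogs of the set, Tagln3, the transgelin of neurons, rose by 0.54 (edgeR adjusted p = 0.00551) and Acta1, the skeletal actin, by 0.81 (0.0349), while Tagln2, the transgelin of non-muscle cells, fell by 0.41 (0.00185), with Myl12b and Mylpf. The calls of Tagln2 and Tagln3 held without any single library. Acta1 no longer passed when NT replicate 1, 2 or 3, replicate 4 of Mycn-gRNA2 or replicate 3 or 4 of Mycn-gRNA3 was left out (edgeR adjusted p 0.0563 to 0.121). The Myl12b call, at -0.24, ended without any of 9 libraries, all but Mycn-gRNA2 replicates 1 and 2 and Mycn-gRNA3 replicate 3 (0.0521 to 0.129), and that of Mylpf, at -0.44, without any of 8, all but NT replicate 4, Mycn-gRNA2 replicate 2 and Mycn-gRNA3 replicates 1 and 2 (0.0704 to 0.151). Per ERCC read Tagln2 stood at -0.02, Mylpf at -0.05 and Myl12b, on the other side of 0, at 0.17. The abundant cytoplasmic actins Actb, at -0.06 (edgeR adjusted p = 0.572), and Actg1, at 0.22 (0.0525), did not pass relative to the transcriptome. Per ERCC read both passed, at 0.34 (edgeR adjusted p = 0.0303) and 0.63 (0.000516), beside a shift of 0.39 in the median gene.

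Of 14 other smooth muscle genes tested, 5 rose and 2 fell, with a median of 0.18. Over all genes 14.9% rose and 13.0% fell. Des, the intermediate filament desmin, rose from 3.14 ± 0.363 CPM to 5.84 ± 1.78 in the Mycn-gRNA2 and 5.85 ± 1.63 in the Mycn-gRNA3 libraries (SD, n = 4 per group), a log2 fold change of 0.90 (edgeR adjusted p = 0.00609). Ppp1r14a, the inhibitor of myosin phosphatase known as CPI-17, rose by 0.69 (0.00428), and Synpo2, a Z-disc and actin-bundling protein, by 1.02 (0.00901). Tgfb1i1, the focal adhesion protein Hic-5, rose by 0.98 (0.0209), a call that ended without NT replicate 1 (edgeR adjusted p = 0.0733). The fifth, Cald1, rose by 0.32, and Ppp1r12a and Csrp2 fell by 0.22 and 0.23, which turned to 0.18 and 0.16 per ERCC read. On that scale 8 of the 14 rose and 0 fell, where 56.4% of all genes rose and 0.931% fell. The Cald1 call ended without any library but Mycn-gRNA2 replicates 1, 2 and 4 (0.0532 to 0.12), the Ppp1r12a call without any but NT replicate 2, Mycn-gRNA2 replicates 1 and 2 and Mycn-gRNA3 replicate 1 (0.0525 to 0.108), and the Csrp2 call without any but NT replicate 4 and Mycn-gRNA2 replicates 1, 2 and 4 (0.055 to 0.127). Myh11, the smooth muscle myosin heavy chain that defines mature smooth muscle, had 29 NT reads and 61 guide reads, a ratio of 0.956 (0.605 to 1.54), and did not pass the filter. Myocd, the myocardin coactivator, had 2 NT reads and 7 guide reads, a ratio of 1.59 (0.303 to 15.7).

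Of 13 other cardiac sarcomere genes tested, 1 rose and 3 fell, with a median of -0.22, where over all genes 14.9% rose and 13.0% fell. Myh7, the slow and cardiac beta myosin heavy chain that pairs with Myl3, rose from 10 NT reads to 98 guide reads, a ratio of 4.45 (2.32 to 9.58) and a log2 fold change of 2.10 (edgeR adjusted p = 0.000284). Ttn, titin, which sets the length of the sarcomere, fell by 0.65 from 470 ± 66 CPM (SD, n = 4; edgeR adjusted p = 0.000131). Ryr2, the calcium release channel of heart, fell by 0.47 (0.00393) and Nppa, atrial natriuretic peptide, by 0.62 (0.0231), but the Nppa call ended without NT replicate 3 or 4 (0.0695 and 0.11). Per ERCC read the 3 stood at -0.24, -0.07 and -0.22. Tnnt2, cardiac troponin T, had 17 NT reads and 39 guide reads, a ratio of 1.04 (0.576 to 1.97). Of 13 skeletal muscle genes 2 passed the filter and 0 were called by edgeR.

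Of 6 tested cardiac and mesoderm factors, Gata6, a factor of heart and of primitive endoderm, rose by 1.53 from 0.724 ± 0.156 CPM (SD, n = 4; edgeR adjusted p = 0.000153). Tbx3 and Tbx20, T-box factors, fell by 0.69 (0.00176) and 0.61 (0.00569), and per ERCC read stood at -0.31 (0.0491) and -0.19 (0.349). Below the filter, Mef2c, a myocyte enhancer factor, had 6 NT reads and 67 guide reads, a ratio of 5.07 (2.21 to 14.3). Hand1 and Hand2 had 4 and 6 NT reads against 31 and 37, ratios of 3.52 (1.24 to 13.7) and 2.8 (1.17 to 8.12). Isl1 had 29 NT reads and 49 guide reads, a ratio of 0.768 (0.475 to 1.26), and Mesp1 15 and 24, a ratio of 0.727 (0.366 to 1.49). Tbx5 had 1 and 4, a ratio of 1.82 (0.18 to 89.5).

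In the SRF and MRTF network, 2 of 23 tested genes rose and 5 fell, with a median of -0.18. The shares over all genes were 14.9% and 13.0%. Srf itself differed by 0.26 (edgeR adjusted p = 0.12), Mrtfa (Mkl1) by 0.09 (0.453) and Mrtfb (Mkl2) by -0.08 (0.582), so none of the 3 passed relative to the transcriptome in the fit without a replicate block. Per ERCC read all 3 passed, at 0.68, 0.50 and 0.33 (edgeR adjusted p = 0.00119, 0.00545 and 0.0465), beside a shift of 0.39 in the median gene. Tes, testin of focal adhesions, rose by 0.91 (0.000395). The immediate early genes Fos and Egr1 fell by 0.77 (0.000239) and 0.68 (0.00266), and Pdlim5 by 0.35 (0.000729). Per ERCC read these 3 stood at -0.36, -0.30 and 0.05 and none passed. On that scale 7 of the 23 genes rose and 0 fell, where 56.4% of all genes rose and 0.931% fell. The calls of Fhl2, which rose by 0.92, and of Elk3 and Filip1l, which fell by 0.27 and 0.33 (0.13 and 0.06 per ERCC read), each ended without single libraries: Fhl2 without any but NT replicate 3 and Mycn-gRNA2 replicate 1 (0.0514 to 0.139) and also with DESeq2 (0.0747), Elk3 without NT replicates 1, 2 or 4 (0.0527 to 0.0756) and Filip1l without any but Mycn-gRNA2 replicates 1 and 2 and Mycn-gRNA3 replicate 1 (0.0553 to 0.13).

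TGF-beta signalling, an inducer of smooth muscle genes, had 5 of 18 tested members that rose and 5 that fell, with a median of -0.07. The shares over all genes were 14.9% and 13.0%. Tgfb3, a ligand, rose by 1.30 on the log2 scale (edgeR adjusted p = 0.004), Eng, the coreceptor endoglin, by 0.67 (5.08e-05) and Smad3, a signal transducer, by 0.37 (0.00555). Smad7 and Smad4 fell by 0.44 and 0.18 relative to the transcriptome and stood at -0.06 and 0.22 per ERCC read. On that scale 7 of the 18 rose and 0 fell, where 56.4% of all genes rose and 0.931% fell. Of the 10 calls 6 held without any single library, and those of Ltbp1, Tgif1, Pmepa1 and Tgfbr2 did not: Ltbp1 ended without NT replicates 1 or 2 (0.0735 and 0.0892), Tgif1 without NT replicate 4 (0.0565) and Pmepa1 and Tgfbr2 without NT replicates 3 or 4 (0.0598 to 0.123).

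Part of the markers of other cell types were also higher with the guides. These lists too were chosen with earlier results of these data known, so their counts and p-values are a description. Of 10 tested fibroblast and mesenchymal markers 6 rose and 0 fell, where over all genes 14.9% rose and 13.0% fell. The list summed to 134 to 226 CPM in NT, 157 to 352 with Mycn-gRNA2 and 181 to 310 with Mycn-gRNA3. Vim made up most of that sum (121 to 207 CPM in NT) and did not pass, at 0.33. Col5a1 (0.42), Twist1 (0.26) and Pdgfrb (-0.28) did not pass either. Col3a1, a fibrillar collagen, had 1 NT read and 115 guide reads, a ratio of 52.3 (9.19 to 2080), with a fitted log2 fold change of 5.17, or 6.81 without NT replicate 3, which holds the read. Col6a1 had 8 NT reads and 195 guide reads, a ratio of 11.1 (5.51 to 26), with an edgeR adjusted p of 6.56e-05. Col5a2 rose by 1.88 and Thy1 by 1.11 (edgeR adjusted p = 9.91e-06 and 0.000843), and Col1a1 and Pdgfra rose as well. Postn, Lum and S100a4 had 0 reads in NT and 6, 7 and 10 over the 8 guide libraries. Their counting intervals for the ratio to NT began at 0.535, 0.655 and 1.02, so those of Postn and Lum take in an equal level. The part of such cells in the levels of Acta2, Myl9 or Tagln was not tested.

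Of 7 tested endothelial markers 3 rose and 0 fell, where over all genes 14.9% rose and 13.0% fell. The list summed to 39.1 to 41.2 CPM in NT, 44.3 to 62.9 with Mycn-gRNA2 and 44.6 to 49.5 with Mycn-gRNA3. Kdr, a VEGF receptor, rose by 2.97 (edgeR adjusted p = 3.76e-06) and Flt1, another, by 0.83 (0.0104); the Cldn5 call, at 1.07, ended without NT replicate 3 (0.0735). Emcn had 0 NT reads and 17 guide reads, with a counting interval of the ratio to NT that began at 1.87. Pecam1 (0.34), Cdh5 (1.22), Tek (-0.01) and Tie1 (-0.58) did not pass. Of 15 primitive and parietal endoderm markers 10 rose and 1, Sox7, fell, with sums of 533 to 666, 655 to 865 and 718 to 888 CPM. Foxa2 rose from 6 to 468 reads, Lrp2 by 0.99, Col4a1 by 1.42 and Col4a2 by 1.34. Gata4 (0.50), Lamb1 (0.16), Lama1 (-0.14) and Sparc (0.11) did not pass. The calls of Sox17 (without NT replicates 1, 2 or 3, 0.0607 to 0.0939) and Thbd (without NT replicates 2, 3 or 4 or Mycn-gRNA3 replicate 3, 0.0595 to 0.0675) ended. Of 10 embryonic stem cell markers 0 rose and 4 fell, Nanog by 0.60, Tfcp2l1 by 0.48, Klf4 by 0.36 and Esrrb by 0.35, the last not without NT replicates 1, 2 or 4 (0.0584 to 0.0671). Dppa5a (0.24), Utf1 (0.18), Pou5f1 (-0.17), Sox2 (-0.18), Zfp42 (-0.14) and Tdgf1 (-0.13) did not pass. Per ERCC read the 4 that fell stood at -0.21, -0.10, 0.02 and 0.04. On that scale 2 of the 10, Dppa5a (0.62) and Utf1 (0.58), rose and 0 fell, where 56.4% of all genes rose and 0.931% fell. Whether these shifts and those of the contractile genes lie in the same cells was not tested.

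**Figure D4:**
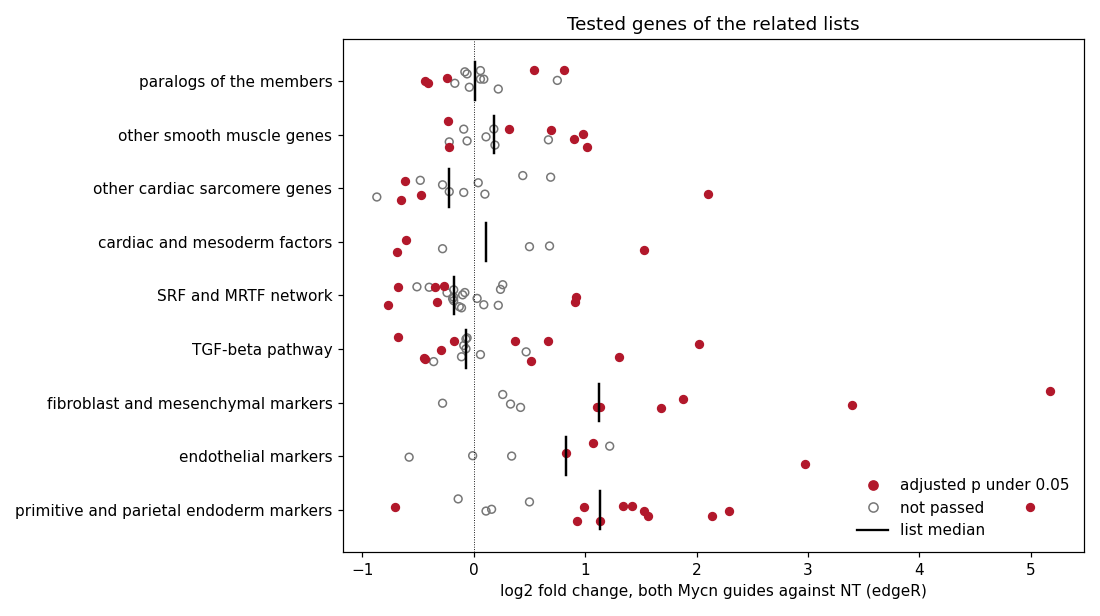
Log2 fold change with both Mycn guides against NT (x axis, edgeR, relative to the transcriptome) for every tested gene of the lists of related genes and cell type markers (y axis, points spread at random within a list); filled points passed an adjusted p under 0.05 and vertical bars are list medians. The medians of the paralogs, smooth muscle, cardiac, SRF and TGF-beta lists lie between -0.22 and 0.18, and those of the fibroblast, endothelial and endoderm markers at 1.12, 0.83 and 1.13.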

How the data were processed

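PolyA RNA was measured in 12 libraries, 4 per group, with groups and replicate numbers taken from the labels. The deposited table holds raw read counts of 24421 genes and, beside them, 92 ERCC RNAs. The submitters' processing notes name Trim Galore 0.4.0, featureCounts of Subread 1.5.0, build mm10 and edgeR 3.32.1, with aligner, annotation and strand setting not given in the sources used here. A second deposited table, of log2 values, was not used here.

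Counts were fitted in R 4.3.3 with edgeR 4.0.16 (TMM, filterByExpr, robust quasi-likelihood F test, a term per group, 14497 genes), with Benjamini-Hochberg adjustment over all of them and calls at an adjusted p under 0.05. Levels per ERCC read set library sizes to ERCC totals. Equal cell numbers and RNA yields were not checked. Alternatives were DESeq2 1.42.0, its size factors, no filter, a replicate block, replicates 1 and 2 or 3 and 4 alone, and leaving out each library. The procedure was tested on simulated counts. Ratios of reads scaled to library size carry exact 95% counting intervals. Libraries of a group differed by more than sampling noise (chi-square over degrees of freedom 8.68 to 73.3).

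The 10 genes and all lists were chosen with earlier results of these data known. Named are the 10 genes, up to 4 called genes per list with the lowest adjusted p, Srf, Myocd, Mrtfa, Mrtfb, Mycn and the 5 genes most like Acta2 and most like Myl3; a few more, named to complete small counts, were picked with their values in view. 1 gene that this rule names is not reported here. Same-numbered libraries of the 2 guides deviated together in all 4 pairs (Pearson r of deviations from group means 0.209 to 0.621). The numbers were thus taken to pair the guide libraries. That pairing is not clean, since replicate 4 of Mycn-gRNA2 and replicate 3 of Mycn-gRNA3 reached 0.453. Same-numbered pairs with NT ran from -0.006 to 0.352 and were not taken to be paired. The block was fitted over all 12 libraries even so. Its results against NT thus rest on a pairing by number that was not taken to hold. With the block, the Myl3 difference between the guides was 0.73 (edgeR adjusted p = 0.491). Exon positions and transcripts came from GENCODE and promoters from RefSeq.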

Additional observations from a re-analysis of the deposited data

Results flagged for a closer look

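Of 30 groups of 4 libraries examined (10 genes in 3 groups), 2 held a library far from the other 3 by Dixon's test at the 95% level. Chance alone flags about 1 in 20 groups of continuous values, a rate that does not hold for groups of a few reads. Actc1 stood at 0.0448 CPM in NT replicate 2 and at 0 in the other 3 NT libraries, a difference of 1 read. With the other 3 at 0, any read at all is flagged. Actg2 stood at 0.289 CPM in Mycn-gRNA3 replicate 3, from 8 reads, and at 0.0807 to 0.109 CPM in the other 3 libraries of that guide, from 2 or 3 reads each.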

How the results depend on the processing

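The number of contractile genes with all guide libraries above all NT libraries was 5 with DESeq2 size factors, per ERCC read and without any one library, and 7 within replicates 1 and 2 alone. The number that differed between the guides by edgeR or DESeq2 was 0 under every alternative. Per ERCC read, related genes that rose and fell numbered 38 and 1. They numbered 16 and 22 with DESeq2 and 18 and 27 with the replicate block, and ranged from 12 to 20 and from 12 to 24 without single libraries. The block also brought Srf past the edgeR threshold, at 0.27, and ended the call of Fhl2 (edgeR adjusted p = 0.0519). Per ERCC read, values below 0 turned to above 0 for the called genes Myl12b (0.17), Csrp2 (0.16), Ppp1r12a (0.18), Pdlim5 (0.05) and Elk3 (0.13). Called as well, and turned alike, were Filip1l (0.06), Smad4 (0.22), Tgif1 (0.11), Klf4 (0.02) and Esrrb (0.04). Many uncalled genes of the lists did so too, among them Mkl2 (0.33), Actb (0.34), Flna (0.19) and Pou5f1 (0.22). For Tagln (0.08) and Tpm1 (0.04) the same held between the guides. Between the guides they also turned for Tagln with the replicate block (0.10) and within replicates 1 and 2 (0.43), for Tpm1 within replicates 1 and 2 (0.01) and for Cnn2 within 3 and 4 (-0.16). Leaving out single libraries gave ranges between the guides of -0.05 to 0.14 (Acta2), -0.26 to 0.27 (Tagln), -0.15 to 0.27 (Cnn1), -0.07 to 0.31 (Cnn2), -0.23 to 0.05 (Tpm1) and 0 to 0.15 (Tpm2), and -0.15 to 0.01 for Mkl2 against NT. The causes were not tested. For Acta2, Myl3, Actc1 and Actg2 the 1 to 16 reads over the NT libraries limit how large a ratio can be stated.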
